A study of Mus musculus with 250 samples.

Results

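Gja1, Gjb6 and Gjb2 are the genes of the connexins Cx43, Cx30 and Cx26, the connexins described in mouse astrocytes. They were taken by symbol, as 3 of the 24490 gene rows of a table of read counts, and each had a row. The table covers 250 cells, each a separate sample, which their titles name as astrocytes of the brain. The cells came from brains of adult C57BL/6 mice aged about 3 months. All of the mice carried SM22-Cre and a Rosa26 reporter allele in which a stop sequence precedes the red fluorescent protein tdTomato. SM22 is the product of the smooth muscle gene Tagln, so its promoter sets which cells lose the stop. Cells were sorted by fluorescence into wells and read as full-length cDNA by Smart-seq2. Neither the gate of the sort nor the number of animals is stated by the labels. The design holds a single genotype without a treatment or a control group, so the comparisons it allows are among the 3 genes, among cells and between the plates.

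Connexins form gap junctions, channels in which hexamers in the membranes of neighbouring cells dock end to end and let ions and small molecules pass. Each gene codes for a subunit, and subunits of different connexins can share a channel where they are compatible. In the mouse brain, gap junctions join astrocytes into a network that moves potassium, glutamate and metabolites between cells. Gja1 is the widely used connexin of astrocytes, Gjb6 is described as appearing late in their maturation, and Gjb2 is described in some astrocytes and in the cells of the meninges. In humans, mutations of GJB2 are a common cause of inherited deafness.

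Gja1 lies on chromosome 10 at 56377330 to 56402513 on the plus strand of GRCm38, the assembly that mm10 names. Gjb6 lies on chromosome 14 at 57123303 to 57133611, on the minus strand. Gjb2 lies beside it on the same strand, at 57098600 to 57104702. The gap between these neighbours is 18.6 kb and holds 1 annotated gene, Gm4491. The neighbours are therefore a case in which genes of 1 family and 1 locus can be compared within cells. The 250 bases before each gene's start in RefSeq (GRCm38.p6) are shown to set the promoters of these neighbours beside that of Gja1. They are printed 5′ to 3′ on the gene's own strand, and capitals mark the matches of the 6 motifs that were searched.

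Gja1 promoter, chr10:56377050-56377299 (+ strand): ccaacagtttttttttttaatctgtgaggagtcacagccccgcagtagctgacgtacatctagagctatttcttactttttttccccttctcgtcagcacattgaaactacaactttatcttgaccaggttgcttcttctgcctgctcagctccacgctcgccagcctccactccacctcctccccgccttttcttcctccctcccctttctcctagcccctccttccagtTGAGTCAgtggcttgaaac
Gjb6 promoter, chr14:57133612-57133861 (- strand): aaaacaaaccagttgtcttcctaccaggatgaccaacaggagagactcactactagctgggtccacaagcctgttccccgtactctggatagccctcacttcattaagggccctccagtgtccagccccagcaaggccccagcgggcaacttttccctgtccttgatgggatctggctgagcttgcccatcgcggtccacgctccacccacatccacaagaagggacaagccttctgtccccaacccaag
Gjb2 promoter, chr14:57104703-57104952 (- strand): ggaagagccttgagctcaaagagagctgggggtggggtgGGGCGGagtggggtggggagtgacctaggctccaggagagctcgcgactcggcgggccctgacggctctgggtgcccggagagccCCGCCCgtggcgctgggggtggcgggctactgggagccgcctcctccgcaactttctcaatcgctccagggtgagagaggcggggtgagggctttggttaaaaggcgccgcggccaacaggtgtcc

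The Gjb2 promoter held 18 CpG dinucleotides and was 69.2% G or C. The promoter of its neighbour Gjb6 held 5 CpG dinucleotides at 56.8%, and that of Gja1 held 6 at 50%. The median of 32851 promoters, which leave out chromosome 18 and are called all promoters here, was 6 CpG dinucleotides and 52.4% G or C. The motifs were searched on both strands, and none of the 6 overlapped another in these windows. Gja1 had 1 match of the AP-1 motif TGAGTCA, which 4.46% of all promoters hold. Gjb2 had 2 matches of the GC box GGGCGG, 1 on each strand, which 32.7% of all promoters hold. The other motifs had no match in the 3 windows. They were the TATA box TATAAA, held by 12.4% of all promoters, and the Sox motif ACAAAG, held by 16.5%. The nuclear factor I motif TTGGCA is held by 12.3% and the E-box CACGTG by 6.02%. A match is a run of letters and is no measurement of binding. The transcripts of the 3 genes shared no run of 50 bases with those of any other connexin gene. Of runs of 30 bases, Gja1 shared 15 of 10358 (0.145%), and Gjb6 and Gjb2 shared none. No annotated gene overlapped the 3 genes.

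The cells held between 102161 and 564958 counted reads each, with the deeper cells on plate 3. Levels are given as CPM, a gene's reads scaled to a cell total of 1000000, and detection means a level of at least 10 CPM. The 2 prefixes of the cell names, Brain.VSMC2 and Brain.VSMC3, are treated as plates 2 and 3, with 162 and 88 cells. VSMC commonly stands for vascular smooth muscle, whereas the titles say astrocyte. Of 14 astrocyte markers, each cell had 9 to 14 detected, with a median of 13. The smooth muscle markers Tagln and Myh11 were each detected in 5 cells and Acta2 in 39, and 1 cell had at least 3 of the 6 smooth muscle markers. At least 3 markers of some other cell type were detected in 40 cells, of which 34 had them for oligodendrocytes. Counts are of reads without molecular identifiers, and cells are not replicates of an animal. The SDs given are therefore spreads between cells, the intervals cover counting error alone, and no test was made.

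Gja1 was present in every cell. Its level was 1318 CPM in the lowest cell, 6877 CPM in the median cell and 20908 CPM in the highest. The middle 50% of cells lay between 5064 and 8832 CPM. No cell stood near 0, and the lowest number of Gja1 reads in a cell was 348. The mean was 7116 ± 2967 CPM (SD, n = 250 cells), rank 10 among all genes by mean CPM.

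Gjb6 was found in nearly every cell at a lower CPM than Gja1. Its level was 0 CPM in the lowest cell, 1910 CPM in the median cell and 8330 CPM in the highest. It was detected in 241 of 250 cells, a share of 96.4% (exact binomial 95% interval 93.3% to 98.3%). A total of 206 cells reached 1000 CPM, 26 had 500 to 1000 CPM and 6 had 200 to 500 CPM. A thin tail of cells ran below that, and the lowest detected cell had 49.6 CPM. Its mean was 2117 ± 1314 CPM (SD, n = 250 cells), rank 40 among all genes. The spread between cells relative to the mean (coefficient of variation, CV) was 0.621 for Gjb6 and 0.417 for Gja1.

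Gjb2 was found in a minority of cells. It was detected in 76 of 250 cells, a share of 30.4% (exact binomial 95% interval 24.8% to 36.5%). The level was 0 CPM in the lowest and in the median cell and 973 CPM in the highest, with a mean of 84.2 ± 172 CPM (SD, n = 250 cells). As a background, 5.92% of the genes with reads (969 of 16367) reached detection in 50% of the cells or more. Gja1 and Gjb6 were among these genes and Gjb2 was not.

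**Figure D1:**
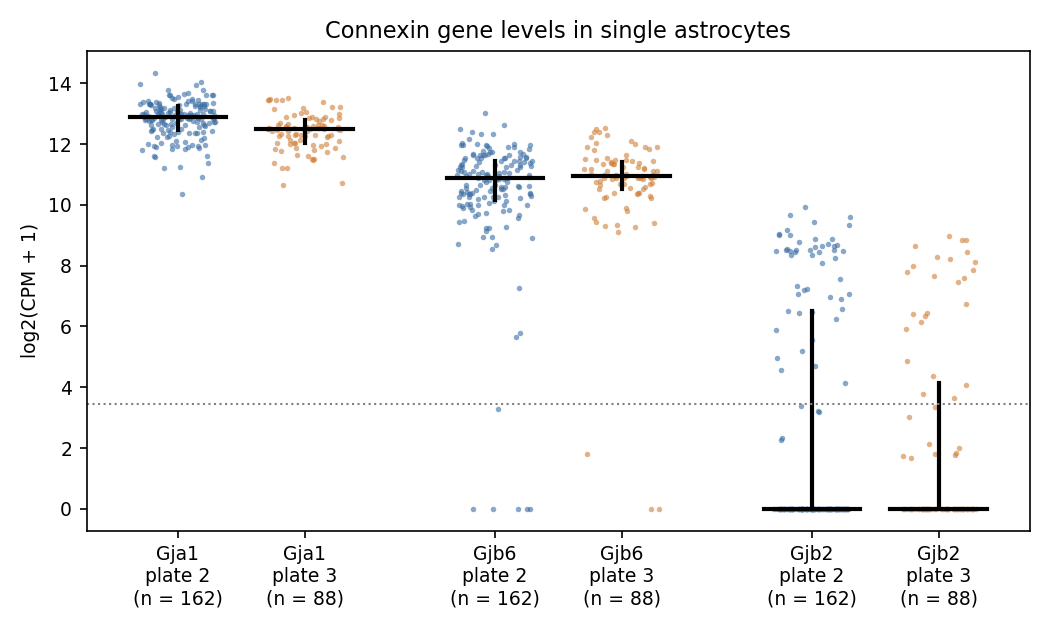
Level of Gja1, Gjb6 and Gjb2 in each cell as log2(CPM + 1), by gene and plate, with 162 cells on plate 2 and 88 on plate 3. Each point is a cell, the horizontal bar is the median, the vertical bar spans the quartiles and the dotted line is 10 CPM. Gja1 forms 1 band, Gjb6 has a band with a low tail and 9 cells below the line, and Gjb2 is below the line in 174 cells.

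The cells that held Gjb2 covered a wide range of levels. Among the 76 cells in which it was detected, 43 cells (56.6%) had 200 CPM or more, and the median was 276 CPM. A further 14 cells had reads below 10 CPM, and 160 cells had no read. In these 160 cells, 3 reads would have been 5.31 to 29.4 CPM, so sequencing depth would not hide a level of 200 CPM. Loss of molecules before amplification was not measured. The other detected cells were spread evenly below that level, with 11 cells at 10 to 50 CPM, 11 at 50 to 100 CPM and 11 at 100 to 200 CPM. A total of 20 cells held 50% of all Gjb2 CPM, against 71 cells for Gjb6 and 87 for Gja1.

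Detection of Gjb2 had no steady course with depth on plate 2 and hardly differed between the depth groups of plate 3. On plate 2, split into 3 equal groups by total reads, it was detected in 29.6% of the shallowest, 37.0% of the middle and 27.8% of the deepest 54 cells. On plate 3 the shares of 30, 29 and 29 cells were 26.7%, 27.6% and 31.0%. Thinning every cell to 50000 reads, where a single read passes 10 CPM, gave 29.2% of all cells. At full depth the share was 36% at 1 read and 30.4% at 10 CPM. As a gauge of reads that do not belong to the cell, the endothelial marker Cldn5 reached 10 CPM in 2 cells (0.8%). The gauge depends on the marker chosen. At least 1 endothelial marker reached 10 CPM in 21 cells, at least 1 smooth muscle marker in 66 and at least 1 marker of meningeal fibroblasts in 85. A single low read is therefore no measure of expression here. Gjb2, at 10 CPM in 76 cells, was far above Cldn5 but not above every such set of markers. The part of foreign reads in its detection was not tested.

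**Figure D2:**
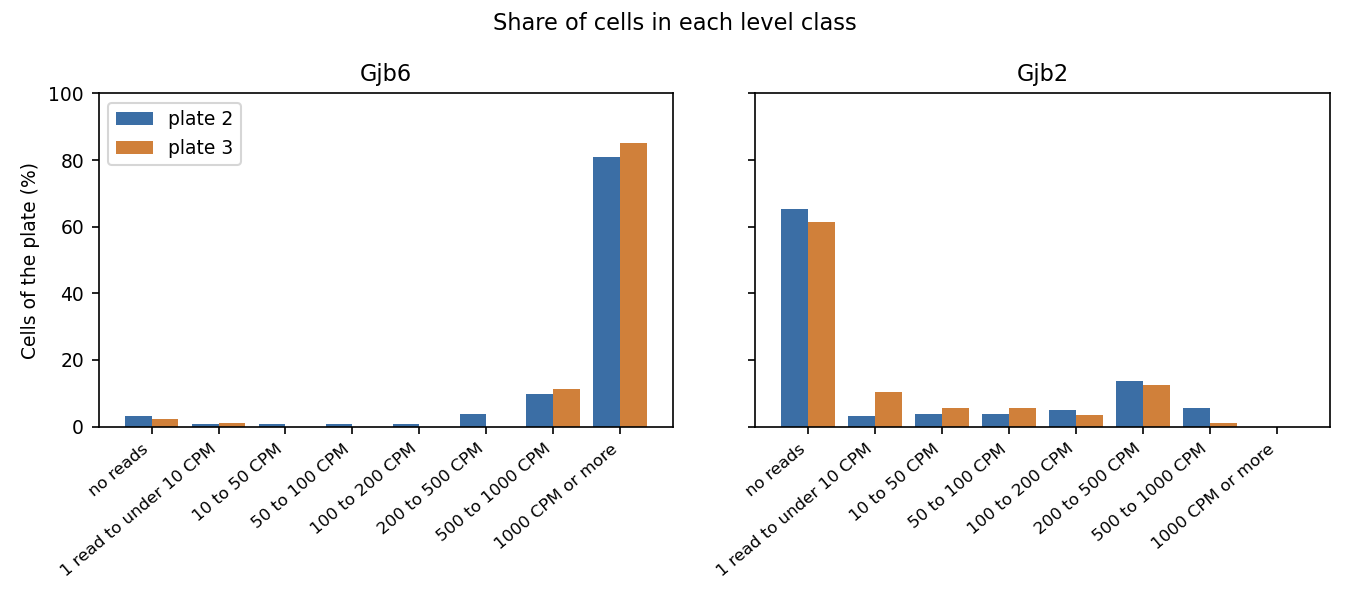
Share of the cells of each plate, in percent, in 8 classes of level for Gjb6 (left) and Gjb2 (right), with plate 2 in blue and plate 3 in orange. For Gjb6, most cells have 1000 CPM or more, and for Gjb2 most have no read, with 200 to 500 CPM as the fullest class among detected cells.

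For all 3 genes the spread was close to that of other genes of the same level. The squared CV was set against a trend over 5079 genes of each mean level, so that 1 is the usual spread. Gja1 had 0.98 times the trend on plate 2 and 0.83 times on plate 3. Gjb6 had 1.20 and 0.97 times, and Gjb2 had 0.87 and 0.72 times. The spread of Gjb2 was thus no wider than the trend for genes at its mean level in these cells.

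The order of Gja1 and Gjb6 by transcript level depended on the length that the reads were divided by. Per kb of all annotated exons (10.257 kb for Gja1, 2.674 kb for Gjb6), the mean level was 694 ± 289 CPM per kb for Gja1 and 792 ± 491 CPM per kb for Gjb6 (SD, n = 250 cells). Per kb of the longest annotated transcript (3.889 and 2.105 kb), it was 1830 ± 763 CPM per kb for Gja1 and 1006 ± 624 CPM per kb for Gjb6. Which transcripts these cells use cannot be read from counts per gene, so no order of these genes is given. Gjb2 lay below both under either length, at 35.0 ± 71.4 CPM per kb.

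Other connexin genes were close to absent. Of 671985 reads on connexin genes, 75.4% fell on Gja1, 23.2% on Gjb6 and 0.870% on Gjb2. The other 17 connexin genes in the table held the rest, and 9 of them had no read in any cell. Among these 9 were Gja5, a connexin of the endothelium, and Gjd2, the main connexin of neuronal electrical synapses. For each, 0 of 250 cells allows up to 1.2% of cells with a read, counting 3 cells as the limit, and loss of molecules before amplification is not covered. Gja4, another endothelial connexin, had 22 reads in 22 cells. Gjc1, a connexin of vascular smooth muscle, had 11 reads in 11 cells. Neither reached 10 CPM in any cell.

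The exception was Gjc3, a connexin of oligodendrocytes. It was detected in 37 of 250 cells, with a mean of 47.2 ± 164 CPM (SD, n = 250 cells), and 10 cells held 64.7% of its level. Gjb1, another connexin of oligodendrocytes, held 2 reads in all. Cells with Gjc3 did not gather among cells with oligodendrocyte markers, since 5 had at least 3 such markers where independence would give 5.03. Pannexins, which form pores in a single membrane, were low as well. Panx1 was detected in 4 cells, Panx2 in 1 and Panx3 in none.

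**Figure D3:**
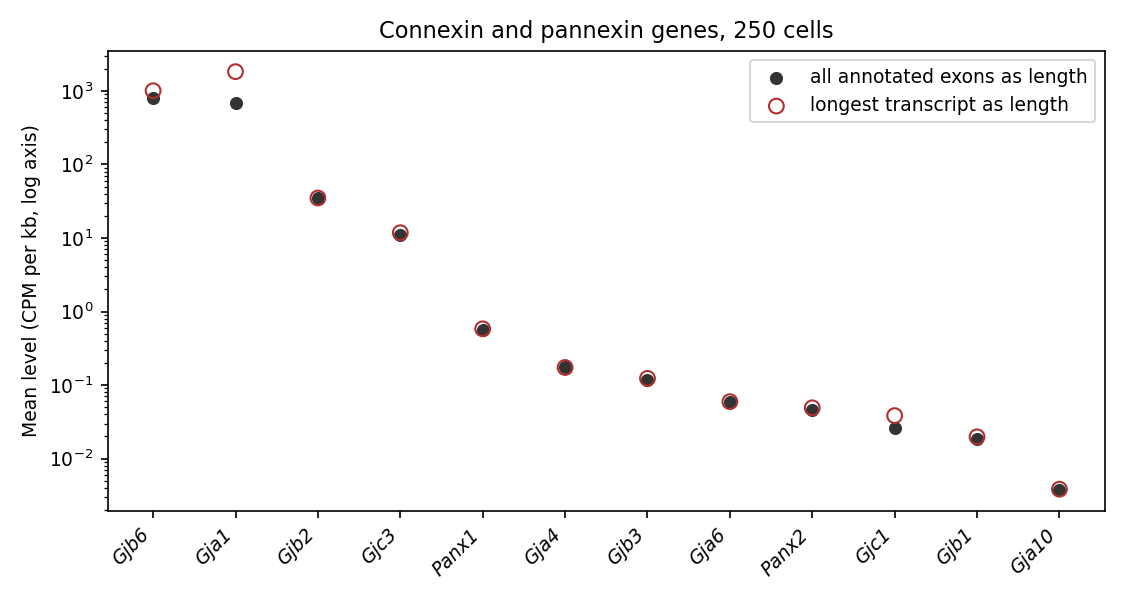
Mean level over 250 cells, in CPM per kb on a log axis, of the connexin and pannexin genes with reads that are reported here. Filled points divide by the length of all annotated exons and open circles by the longest annotated transcript. Gjb6 and Gja1 change places between the lengths (792 and 694 against 1006 and 1830 CPM per kb), and Gjb2 is below both at 35.0 CPM per kb.

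Gja1 with Gjb6 was the usual combination. Both were detected without Gjb2 in 166 cells (66.4%), and all 3 were detected together in 75 cells (30.0%). Gja1 alone was detected in 8 cells, and Gja1 with Gjb2 but without Gjb6 in 1 cell. Gjb2 was almost never seen without Gjb6, but Gjb6 was in nearly every cell. Both genes of the chromosome 14 pair were detected in 75 cells. Independent detection would place 73.3 cells there, so observed over expected was 1.02. The counts were 50 against 49.1 on plate 2 and 25 against 24.1 on plate 3. With Gjb6 in nearly every cell this ratio cannot exceed 1.04, and 1 of the 9 cells without Gjb6 had Gjb2. Co-detection therefore cannot show whether these neighbours go together.

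The 9 cells without Gjb6 kept most astrocyte markers but mostly had fewer detected genes than the median cell. They had 113341 to 492498 reads and 11 to 13 of the 14 astrocyte markers. Of them, 7 had no Gjb6 read and 2 had 1 read, and 6 were on plate 2. Of these 6, 4 were among the shallowest 54 cells of the plate and 2 among the deepest 54. On plate 3, each of the 3 depth groups held 1 cell without Gjb6. The median number of reads was 278299 in the 9 cells and 282290.5 in all cells. The number of detected genes ran from 1282 to 2612 and was below the median of all cells (2400.5) in 8 of the 9. The part of depth and of RNA content in the absence of Gjb6 was not tested. Their Gja1 level ran from 1318 to 12444 CPM, so that its range overlapped that of the other cells. Its median of 3829 CPM was low, below the lower quartile of all 250 cells (5064 CPM, with a median of 6877 CPM). The cell with the lowest Gja1 level of all was among the 9, and it also had the fewest detected genes, 1282.

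Within a cell, Gjb6 was mostly a fraction of Gja1 in CPM. The log2 ratio of Gjb6 to Gja1, with 1 CPM added to each, had a median of -1.86 and quartiles of -2.56 and -1.10. In the 241 cells in which both were detected, the log2 ratio without an added CPM ran from -7.70 to 0.55. The ratio therefore covered a wide range although both genes were present. Gjb6 had the higher CPM in 7 cells. Per kb of all exons it was higher in 133 cells, and per kb of the longest transcript in 46. In the 75 cells with both genes of chromosome 14, the log2 ratio of Gjb2 to Gjb6, also without an added CPM, had a median of -3.21 and ran from -7.14 to -0.11.

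The sum of the 3 genes varied less than each of them relative to its mean. It was 1318 CPM in the lowest cell, 8965 CPM in the median cell and 25953 CPM in the highest. The mean was 9317 ± 3383 CPM (SD, n = 250 cells), a CV of 0.363, against 0.417 for Gja1 alone. A sum of genes that vary apart from each other has a lower CV by arithmetic, so the value says nothing of a balance between them.

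The levels of the 3 genes were at most weakly related across cells. Spearman's rho between Gja1 and Gjb6 was 0.06 over the 162 cells of plate 2 and 0.20 over the 88 cells of plate 3. Between Gja1 and Gjb2 it was -0.01 and 0.08. Cells of a plate share library preparation, depth range and possibly animals, so these are descriptions without a p. Between the neighbours Gjb6 and Gjb2, rho was 0.01 on plate 2 and 0.32 on plate 3. On plate 3, Gjb6 also had a rho of 0.37 with the number of genes detected, against -0.05 on plate 2. With total reads and genes detected held fixed, the rho of Gjb6 and Gjb2 on plate 3 was 0.30. No relation of the neighbours thus held on both plates, and the difference between the plates was not tested.

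**Figure D4:**
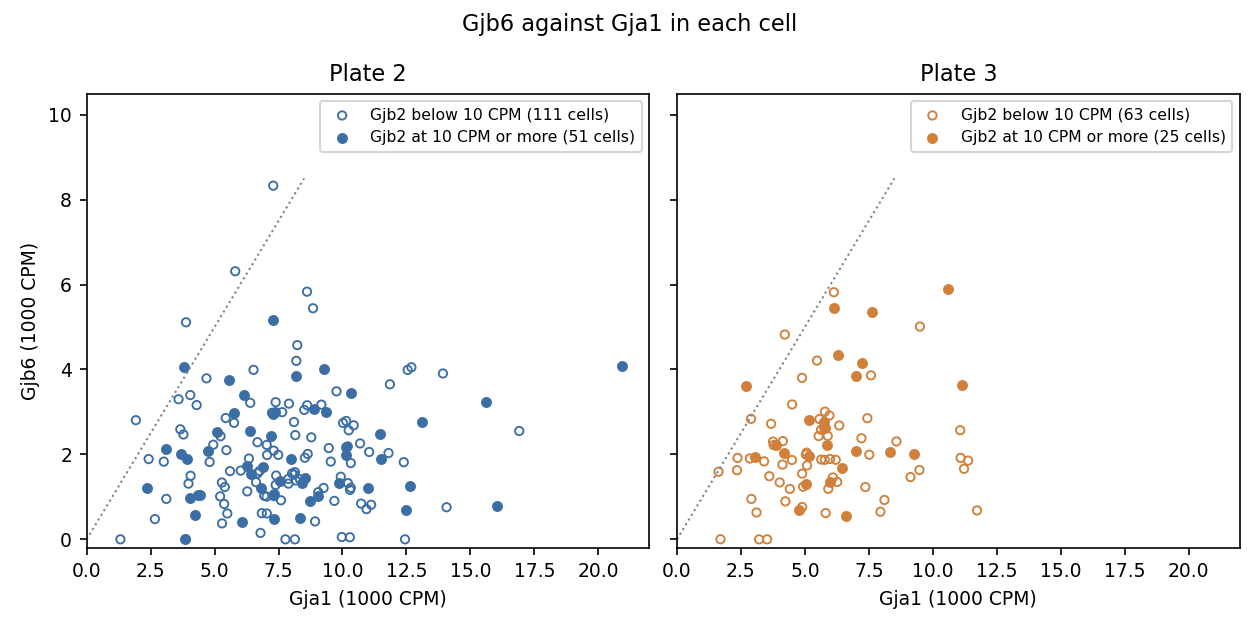
Gjb6 against Gja1 in each cell, in units of 1000 CPM, for plate 2 (left, 162 cells) and plate 3 (right, 88 cells). Filled points are cells with Gjb2 at 10 CPM or more, and the dotted line marks equal CPM. The points form a cloud without a clear slope, rho being 0.06 and 0.20, and 7 cells lie above the line.

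Between the plates, Gja1 and Gjb2 were lower on plate 3 and Gjb6 was not. The mean of Gja1 was 7790 ± 3057 CPM on plate 2 (SD, n = 162 cells) and 5874 ± 2342 CPM on plate 3 (SD, n = 88 cells), a log2 ratio of -0.41. That of Gjb6 was 2058 ± 1338 and 2225 ± 1270 CPM, a log2 ratio of 0.11. That of Gjb2 was 99.4 ± 193 and 56.2 ± 121 CPM, a log2 ratio of -0.82. The cells of the plates overlapped over most of the range for each gene. Among 2803 genes the median absolute log2 ratio was 0.253, and that of Gjb2 was at percentile 95.6. The share of cells with Gjb2 was 31.5% on plate 2 and 28.4% on plate 3, and the median in these cells was 347 and 192 CPM. The medians of the positive cells thus lay further apart than the shares. Plate, depth and any difference between animals cannot be told apart. The median log2 ratio of Gjb6 to Gja1 per cell was -2.07 on plate 2 and -1.39 on plate 3.

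The share of cells with Gjb2 was higher among cells with at least 3 oligodendrocyte markers, with intervals that just overlapped, but not at every lower cut. Gjb2 was detected in 17 of the 34 cells with at least 3 of 10 such markers (50%, exact binomial 95% interval 32.4% to 67.6%) and in 59 of the other 216 cells (27.3%, interval 21.5% to 33.8%). The shares were 48.3% against 27.8% on plate 2 and 60% against 26.5% on plate 3, where only 5 cells had so many markers. With at least 2 markers the share was 33.3% against 27.0%, and on plate 2 it was 31.3% against 31.7%. With at least 1 marker it was 30.1% against 33.3%. By Mbp alone, Gjb2 was in 26 of 60 cells with it (43.3%, interval 30.6% to 56.8%) and in 50 of 190 without (26.3%). By Cnp alone, it was in 29.8% of cells with Cnp and in 32.2% without. The summed level of the 10 markers did not separate the cells, with a median of 676 CPM and a range of 0 to 3529 CPM where Gjb2 was detected. Where Gjb2 was not detected, the median was 827 CPM and the range 0 to 4075 CPM. The defining markers Mog, Mag, Cldn11, Ermn and Opalin were each detected in 1 cell, whereas Cnp was in 191 cells. Without the 40 cells that had at least 3 markers of another type, Gjb2 was in 28.1% of cells, and its mean was 72.7 CPM. The part of oligodendrocyte RNA in the detection of Gjb2 was not tested.

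Fibroblasts of the meninges are a known site of Gjb2. At least 2 of 7 of their markers were detected in 14 cells, and 8 of these had Gjb2 (57.1%, exact binomial 95% interval 28.9% to 82.3%). With fewer markers it was in 68 of 236 cells (28.8%). With at least 1 marker the share was 26 of 85 cells (30.6%), and without any it was 50 of 165 (30.3%). The summed level of these markers had a median of 4.23 CPM and a range of 0 to 1155 CPM where Gjb2 was detected. It had a median of 3.76 CPM and a range of 0 to 1264 CPM where Gjb2 was not. The collagen gene Col1a1 was detected in 49 cells and Dcn in 6. Most cells with Gjb2 therefore had no marker of these fibroblasts at 10 CPM.

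Partners of each gene were sought as genes whose level went with it on both plates. All 2802 other genes detected in at least 25% of the cells of each plate were compared, and a rho of 0.2 or more on both plates was called. For Gja1 1 gene was called (0.0357%), for Gjb6 3 genes (0.107%) and for Gjb2 1 gene (0.0357%). At -0.2 or less, 1 gene (0.0357%), 3 genes (0.107%) and 0 genes (0%) were called. Under other measures and filters the counts at 0.2 or more ran from 1 to 4 for Gja1, 2 to 7 for Gjb6 and 0 to 3 for Gjb2. The profiles of rho were barely alike between the plates, with the same sign for 50.8% of genes with Gja1, 52.4% with Gjb6 and 49.5% with Gjb2. Single partners are therefore given as values and not as findings.

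The gene most like Gja1 was Cpe, which codes for carboxypeptidase E, an enzyme of peptide hormone processing. Cpe had a rho with Gja1 of 0.44 (plate 2) and 0.23 (plate 3). Its level ran from 859 to 36699 CPM with a median of 6149 CPM. Clu, which codes for the secreted chaperone clusterin, followed at 0.32 and 0.20, the latter rounded up from below the call. Cldn10, a claudin gene of astrocytes, had 0.19 and 0.34. The other genes among the 10 highest were Sypl, Itm2c, Rps15a, Acsl6, Rab4b, Pltp and Phf14. The lowest were Atp5f1, a subunit of ATP synthase, at -0.20 and -0.23 (-0.17 and -0.20 by Pearson's r), and Uqcrq, a subunit of respiratory complex III, at -0.18 and -0.23. Gli1, a transcription factor of hedgehog signalling, had -0.17 and -0.25, and Mettl7a1 and Chd6 completed the 5 lowest.

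The genes most like Gjb6 included receptor, precursor and transporter genes of astrocytes. Ntsr2, a neurotensin receptor gene and astrocyte marker, had a rho of 0.22 on plate 2 and 0.27 on plate 3. Agt, which codes for angiotensinogen and is high in astrocytes outside the telencephalon, had 0.21 and 0.25. Prnp, the prion protein gene, had 0.25 and 0.20. By Pearson's r of log2 values, Agt had 0.13 and 0.13 and Prnp 0.06 and 0.06, so both calls were lost, whereas Ntsr2 had 0.23 and 0.41. The homeobox gene Nkx6-2 had 0.23 and 0.20, the latter just under the call, and Slc1a3, a glutamate transporter gene, had 0.18 and 0.35. Wwp1, a ubiquitin ligase gene described as acting on Cx43 in mice, had 0.19 and 0.23. The others of the 10 highest were Fdft1, Psap, Rnf13 and Anxa6. Astrocyte markers as a list did not go with Gjb6. Of the 13 frequent enough to be compared, 1 was called, Ntsr2. The median of their mean rho was 0.004, against 0.02 over all 2802 genes.

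The genes lowest against Gjb6 were metallothioneins, which code for small proteins that bind zinc and copper. Mt3, the form typical of brain, had a rho of -0.26 on plate 2 and -0.42 on plate 3. Mt1 had -0.28 and -0.29, and Mt2, which was not among the 5 lowest, had -0.09 and -0.22. Both Mt1 and Mt3 were detected in every cell, at medians of 919 and 394 CPM. With total reads and genes detected held fixed, rho was -0.26 and -0.38 for Mt3 and -0.28 and -0.24 for Mt1. Gja1 showed no such relation, with rho of -0.05 and -0.07 for Mt3 and 0.02 and 0.12 for Mt1. The splicing genes Sf3b6 and Srrm2 and the complex I gene Ndufb11 completed the list, and Sf3b6 was the third gene at -0.2 or less. By Pearson's r, Sf3b6 had -0.10 and -0.13, so its call was lost, while Mt3 had -0.26 and -0.39 and Mt1 had -0.23 and -0.26.

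The genes around Gjb6 were also related to each other. Mt1 and Mt3 had a rho of 0.57 on plate 2 and 0.52 on plate 3. Agt had -0.41 and -0.39 with Mt3, and it had 0.32 and 0.40 with Nkx6-2 and 0.31 and 0.25 with Slc1a3. Several of these relations were stronger than those of Gjb6 itself. Itih3, a marker of astrocytes outside the telencephalon, had 0.44 and 0.43 with Agt. With Gjb6 it had 0.16 and 0.32, and with Gja1 -0.07 and -0.24. The values of these genes are thus not independent of each other.

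The gene most like Gjb2 was Nedd8, a ubiquitin-like modifier gene, with a rho of 0.25 on plate 2 and 0.28 on plate 3. Nedd8 was itself detected in 97 of 250 cells, so both levels are 0 in most cells. Itgb8, an integrin gene, had 0.19 and 0.28, and Ntrk2, the gene of the BDNF receptor TrkB, had 0.18 and 0.19. D8Ertd738e, Stt3b, Bcap31, Rab18, Lpin1, Ddt and Gstz1 were the others among the 10 highest. The lowest was Sdhb, a subunit of respiratory complex II, at -0.17 and -0.23, followed by Olfml1, Srp72, Prph and Prkar1a. With Gjb2 absent from most cells, values of this size are no finding.

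**Figure D5:**
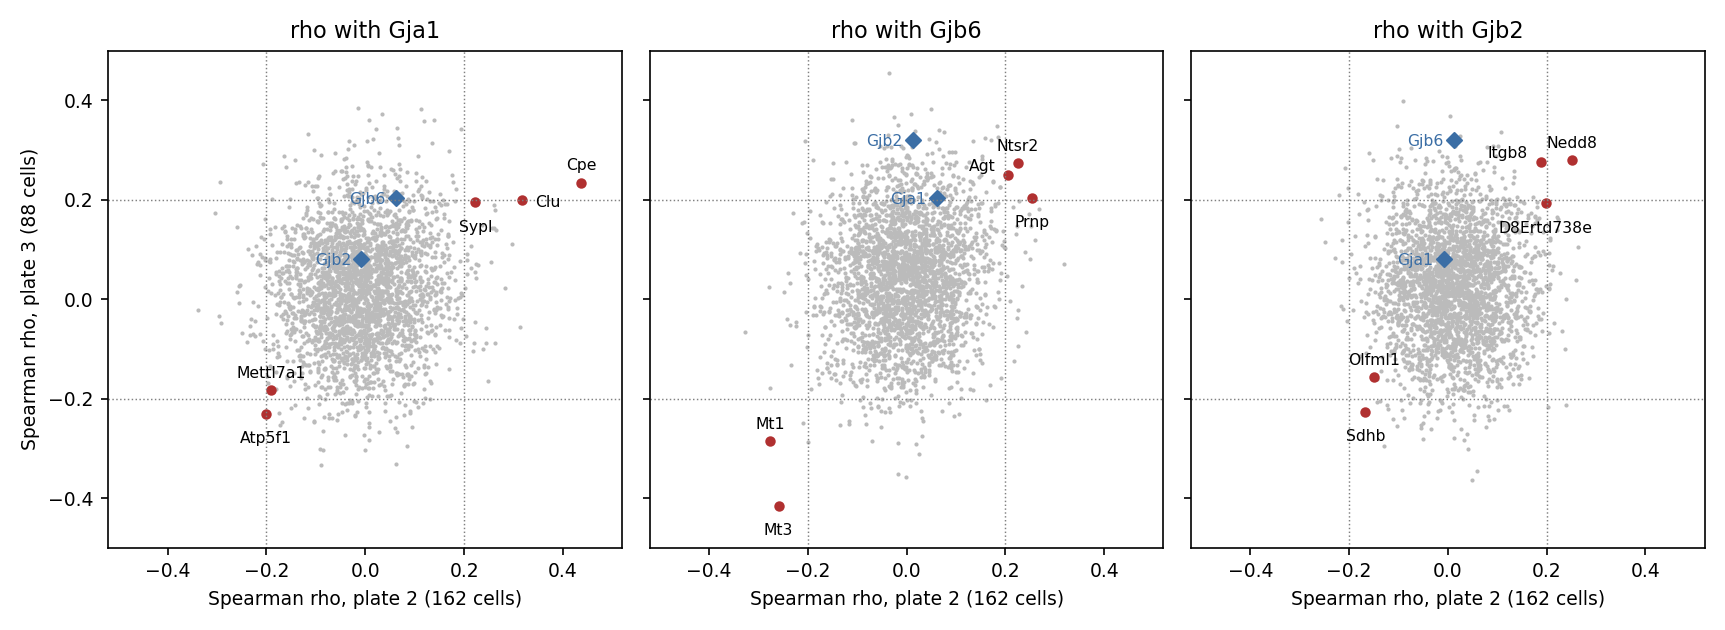
Spearman's rho of 2802 genes with Gja1 (left), Gjb6 (middle) and Gjb2 (right), on plate 2 (horizontal axis, 162 cells) against plate 3 (vertical axis, 88 cells). Red points are the 3 highest and 2 lowest genes by the weaker of their plates, blue diamonds are the other connexin genes, and dotted lines are at 0.2 and -0.2. Each cloud is centred near 0 with no slope, and Cpe for Gja1 and Mt1 and Mt3 for Gjb6 lie past the lines on both axes.

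Genes that act on connexin proteins were detected to differing extents. Of 13 genes of scaffolds and adherens junctions, 1 was detected in at least 50% of cells (against 5.92% of all genes with reads). This was Cdh2, the gene of N-cadherin, which was in 150 cells at a mean of 161 ± 244 CPM (SD, n = 250 cells). Tjp1, the gene of the tight junction protein ZO-1 that binds the tail of Cx43, was in 115 cells. Of 10 genes of connexin transport and turnover, 4 passed, among them the ubiquitin ligase gene Nedd4 in 181 cells, Sqstm1 in 180 and Eps15 in 179. Of 12 genes of kinases that phosphorylate Cx43, 1 passed, the casein kinase gene Csnk1a1 in 161 cells. Src was in 118 cells.

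None of the tested members of the 3 lists reached 0.2 on both plates with any of the 3 genes. Since 0.0357% to 0.107% of all genes did, this count says nothing particular of the lists. Of the lists, 5 of 13, 5 of 10 and 4 of 12 genes were frequent enough to be compared. The median of their mean rho with Gja1 was 0.02, 0.01 and -0.03, against 0.005 over all 2802 genes. Cdh2 had 0.12 and 0.21 with Gja1, and Tjp1 had -0.18 and -0.12.

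Genes of astrocyte endfeet and ion handling, by contrast, were themselves in most cells. Of 9 such genes, 8 were detected in at least 50% of cells (against 5.92% of all genes with reads, here and below). Among them were Aqp4, the water channel gene, in 244 cells and Kcnj10, a potassium channel gene, in 227. On plate 3 Aqp4 had a rho of 0.35 with Gja1 and Atp1b2, a sodium pump subunit gene, had 0.32, but on plate 2 they had 0.06 and -0.03. Kcnj10 had 0.13 and 0.23 with Gjb6, and 0.02 and 0.33 with Gjb2. None of the 9 reached 0.2 on both plates with any connexin gene, as was the case for nearly all genes (0.0357% to 0.107% reached it). Of 8 genes of glutamate uptake and metabolite supply, 6 were in at least 50% of cells and none was called, Slc1a3 with Gjb6 being the nearest. Of 8 genes that mark non-telencephalic astrocytes, 5 were in at least 50% of cells, and Agt with Gjb6 was the 1 called. The median of the mean rho of those 5 genes was 0.15 with Gjb6, 0.10 with Gjb2 and 0.01 with Gja1, against 0.02, 0.02 and 0.005 over all 2802 genes.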

How the data were processed

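Single cells were sorted into wells and read by Smart-seq2, per the labels' protocols. The deposited count table holds whole-number read counts that the authors did not normalize, judged from its values. A second deposited table holds a score, the count scaled by the authors to 500000 per cell and rounded, and 100% of its entries matched that calculation. STAR 2.4.2a and mm10 were used, per the submitters' processing notes. The counting tool, strandedness, gene models and cell filter were not given in the sources used here.

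Every one of the 250 cells was kept, no doublet caller was run, and 0 columns were left unmatched. Counts were divided by the cell's total and scaled to 1000000 (CPM), with 1 CPM added for logs and for ratios over all cells, but not for ratios among cells in which both genes were detected. Shares carry exact Clopper-Pearson intervals at 95%, and a count of 0 was read as allowing 3. Spearman's rho was computed within each plate, and partial rho on ranks given reads and genes detected (scipy 1.17.1, numpy 2.4.6, pandas 2.3.3). The CV trend was a loess with a span of 0.1 over genes with a mean of at least 20 CPM (statsmodels 0.14.6), and figures were drawn with matplotlib 3.10.9. The search for partner genes was tested on simulated data, and the other steps were not. Positions and lengths are from GENCODE annotation of GRCm38 and promoters from RefSeq GRCm38.p6.

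The text names the connexin genes, the members of the lists and, for each connexin gene, the 10 highest and 5 lowest genes by the weaker plate. The genes and lists were chosen with earlier results of these data known. Some genes of these lists are not reported here. Mt2 and relations among partners were added after values were seen. No test was made, since the labels name no animals and the cells form 1 group.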

Additional observations from a re-analysis of the deposited data

How the results depend on the processing

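Alternatives were detection at 1 read or 50 CPM, thinning to 50000 reads, totals without Malat1 and Rn45s, the authors' second table, another pseudocount, another length, other correlation measures and filters, each plate alone, and leaving out the 40 cells with at least 3 markers of another type. No called value changed sign. Of the values of main results under alternatives, 118 stayed within the SD between cells (levels, ratios), the SD between plates (rho), the binomial interval (shares) or 1.5 times the count, and 13 did not. Among single pairs 43 kept their call and 11 lost it. These limits are wide. For rho between connexin genes, the main value is the mean of the plates. Each plate alone is then within the SD between plates by arithmetic, so those values are no check. The rho of Gjb6 and Gjb2 averaged over plates was 0.17, with 0.01 on plate 2 and 0.32 on plate 3, and the mean level of Gjb2 was 56.2 CPM on plate 3 against 84.2 CPM over all cells. Per kb of the longest transcript, the level of Gja1 was 1830 in place of 694 CPM per kb. The counts of partner genes moved most. For Gja1 (1 gene) they were 2 after thinning, 4 by Pearson's r of log2 values, 2 by partial rho and 4 without the 40 cells. For Gjb6 (3 genes) they were 6 after thinning, 7 by Pearson's r, 7 with genes in at least 5 cells and 6 without the 40 cells. For Gjb2 (1 gene) they were 3 after thinning, 2 by Pearson's r, 0 with genes in at least 50% of cells and 2 without the 40 cells. The cause was not tested. All 9 pairs called at either sign kept their sign under 6 settings, and 5 passed 0.2 on both plates by Pearson's r, the fewest. The share of cells with Gjb2 was 36% at 1 read and 26% at 50 CPM. No paired analysis was possible because the cells form 1 group and their labels name no animals. With 1 group and unknown animals, no value here has a replicate check.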
